A study of Mus musculus with 14 samples.

Results

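The collagen genes of mouse pancreatic islets are described here across 2 genotypes and 2 times on a high-fat diet. Every probe set of the array that carried a single gene symbol made of Col and a digit was taken, and where a gene had several the probe set with the highest mean over all arrays stood for it. This gave 42 collagen genes among 18820 genes measured, of which 11 encode fibrillar chains, 8 encode chains of basement membranes and 23 encode other collagens. The rule used no difference between groups, though the family was chosen for description with earlier results of these data known. A further 2 probe sets carried a collagen symbol (Col9a3 or Col7a1) together with another gene's symbol and were left out.

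Each array held RNA of islets from a single mouse, either wild-type C57BL/6 (WT) or a Tlr2/Tlr4 double knockout on a C57BL/6 background (DKO). Tlr2 and Tlr4 encode the Toll-like receptors for bacterial lipopeptides and lipopolysaccharide. All mice lived in a specific pathogen-free facility and ate a diet with 60% fat from 6 weeks of age, so no group ate ordinary chow. The shorter diet of 5 weeks is represented by 4 arrays of WT and 2 of DKO islets, and the longer diet of 7 months by 4 of each genotype. Animals on the longer diet were also older, and time on the diet and age cannot be told apart. Values are log2 signals, so a difference of 1 is a doubling, and differences are given as DKO minus WT or as 7 months minus 5 weeks with the SE of the limma model.

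Collagens are built from chains that wind into a triple helix. Fibrillar collagens such as types I and III assemble outside the cell into the rope-like fibrils of connective tissue, and fibril-associated collagens sit on their surface. Type IV collagen forms the sheet of basement membranes. In the pancreas a basement membrane surrounds the islet's capillaries, whose endothelial cells supply much of it, while stellate cells, pericytes and fibroblasts are the usual makers of fibrillar collagen. Beta cells make little collagen of their own.

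The targeted genes and the tissue label were checked first. The Tlr2 difference was -1.66 ± 0.12 at 5 weeks (adjusted p by limma = 9.71e-06 and exact permutation p = 0.0667) and -1.06 ± 0.10 at 7 months (1.61e-05, exact permutation p = 0.0286), the permutation values being two-sided and the smallest these array numbers allow. The genotypes did not overlap in Tlr2. Tlr4 did not pass by limma at either time (0.35 ± 0.20 and 0.31 ± 0.16, exact permutation p = 0.0667 and 0.286). At 5 weeks its DKO arrays (3.19 to 3.23) lay above its WT arrays (2.79 to 2.90), as for 11.2% of all genes. At 7 months the genotypes overlapped in Tlr4. Its probe set may or may not cover what was deleted, so Tlr4 checks nothing here. The mean of 9 beta cell markers lay between 10.55 and 10.85 in all 14 arrays, so the defining markers of islets were present throughout. The mean of 10 acinar markers, which mark exocrine tissue carried along in islet preparations, differed between arrays. At 5 weeks it ranged from 5.80 to 7.69 among the WT arrays and from 8.11 to 8.44 among the DKO arrays. At 7 months it ranged from 5.00 to 7.93 among the WT arrays and from 7.29 to 7.65 among the DKO arrays.

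To show the promoters of 2 fibrillar genes and 1 basement membrane gene whose levels differed between genotypes, the 250 bases before their start sites are printed from RefSeq (mouse build GRCm38.p6), 5′ to 3′ on the gene's own strand. Capitals mark every match on either strand to the CCAAT box, the TATA box motif TATAAA or the GC box core GGGCGG, and an opposite-strand match is capitalised as its reverse complement. Col3a1 lies on the plus strand at chr1:45311288-45311537, Col1a2 on the plus strand at chr6:4505368-4505617 and Col18a1 on the minus strand at chr10:77166531-77166780. For Col18a1 only the window of the outermost listed start is printed and described.
Col3a1: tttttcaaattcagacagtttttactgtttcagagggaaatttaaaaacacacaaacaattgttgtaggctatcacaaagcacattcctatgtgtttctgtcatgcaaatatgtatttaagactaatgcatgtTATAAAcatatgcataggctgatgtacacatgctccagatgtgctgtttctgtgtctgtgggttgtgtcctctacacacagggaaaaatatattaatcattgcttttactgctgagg
Col1a2: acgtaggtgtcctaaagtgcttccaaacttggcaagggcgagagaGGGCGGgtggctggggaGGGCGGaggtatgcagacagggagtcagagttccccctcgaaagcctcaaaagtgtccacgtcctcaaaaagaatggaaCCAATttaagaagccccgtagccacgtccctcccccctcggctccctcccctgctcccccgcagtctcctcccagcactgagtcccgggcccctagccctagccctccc
Col18a1: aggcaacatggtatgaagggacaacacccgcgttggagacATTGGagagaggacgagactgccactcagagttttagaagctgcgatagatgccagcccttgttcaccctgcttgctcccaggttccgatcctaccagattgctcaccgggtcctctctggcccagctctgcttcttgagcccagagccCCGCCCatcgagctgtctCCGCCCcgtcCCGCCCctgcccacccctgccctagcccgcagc
The Col3a1 window held 1 TATAAA, 117 bases before the start, and neither of the other motifs. The Col1a2 window held CCAAT at 109 bases and GGGCGG at 205 and 188 bases before the start. The Col18a1 window held CCAAT at 210 bases and GGGCGG at 61, 43 and 33 bases before the start, all on the opposite strand. Promoter windows, 37 in all, were matched for 34 of the 42 collagen genes. A gene with several windows counted as holding a motif if any of them did. GGGCGG was in 20 of these 34, against 35.4% of all 27025 genes with a window, CCAAT was in 12 against 37.5%, and TATAAA was in 5 against 14.3%. These matches describe letters in a window and are not binding sites.

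At 7 months, 8 of the 42 collagen genes were higher in DKO than in WT islets and 0 were lower. The 8 comprised both chains of type I collagen (Col1a1 and Col1a2), type III collagen (Col3a1), the fibril-associated Col14a1, both main chains of type IV collagen (Col4a1 and Col4a2), the basement membrane collagen Col18a1 and a chain of type VI collagen (Col6a1). Their differences ran from 0.52 to 1.18, or 1.44-fold to 2.27-fold. The share of collagens called was 19.0%, while 4.71% of all genes passed the test in this comparison, 2.44% higher and 2.27% lower. A gene passed where its limma p, adjusted by Benjamini-Hochberg over all genes, was below 0.05. By group, 3 of 11 fibrillar, 3 of 8 basement membrane and 2 of 23 other collagens passed. The median difference was 0.16 over fibrillar, 0.12 over basement membrane and 0.05 over other collagens, beside 0.01 over all genes. The basement membrane median was 0.03 when DKO replicate 4 of 7 months was left out and 0.19 when DKO replicate 1 was. With a fit of the 8 arrays of this comparison alone the count was 5 instead of 8, since Col4a1 (adjusted p = 0.0525), Col4a2 (adjusted p = 0.0577) and Col6a1 (adjusted p = 0.0995) no longer passed.

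**Figure D1:**
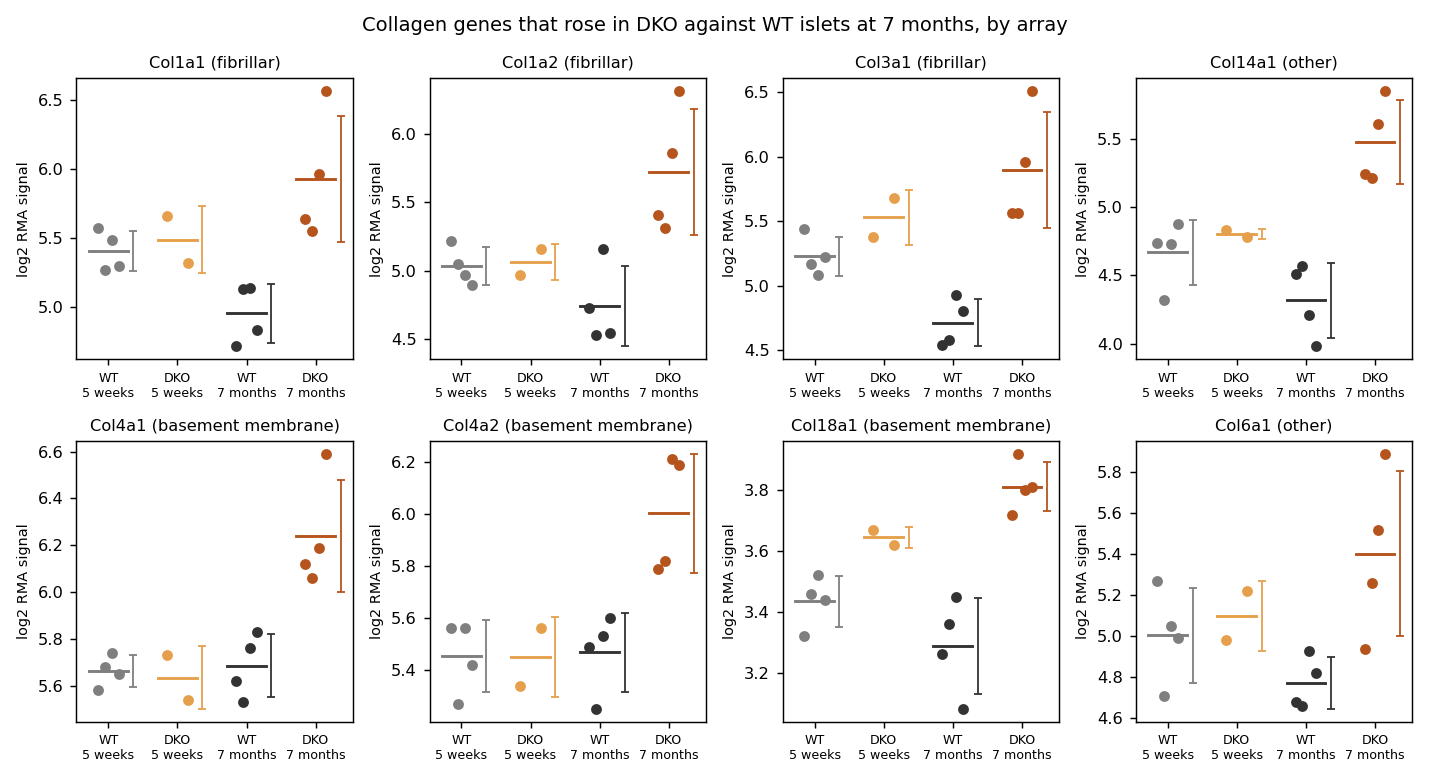
Log2 RMA signal (y axis) of the 8 collagen genes that rose in DKO against WT islets at 7 months, 1 panel per gene with its own scale. Points are arrays, horizontal bars are group means and the bar beside each group is the SD (n = 4, 2, 4 and 4). In each panel the 4 DKO points at 7 months lie above the 4 WT points at 7 months, and at 5 weeks the genotypes overlap in 7 of the 8 panels, Col18a1 being the exception.

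Among the fibrillar collagens, Col3a1 encodes the single chain of type III collagen, which is found with type I in soft tissue. Its signal at 7 months was 4.54, 4.58, 4.93 and 4.80 in the WT arrays and 5.56, 5.56, 5.96 and 6.51 in the DKO arrays. The lowest DKO array lay well above the highest WT array. The difference was 1.18 ± 0.18 (limma adjusted p = 0.00149, n = 4 and 4), and its group means were 5.90 ± 0.45 (SD) and 4.71 ± 0.18. Col1a1, which encodes the alpha 1 chain of type I collagen, read 4.72, 5.13, 5.14 and 4.84 in WT and 5.64, 5.55, 5.96 and 6.56 in DKO islets. Again no array of one genotype reached the other's range, and the difference was 0.97 ± 0.18 (adjusted p = 0.00691). Col1a2, the partner chain of the same molecule, read 4.73, 4.53, 5.16 and 4.55 in WT and 5.41, 5.31, 5.86 and 6.31 in DKO islets. The groups lay closer here, since WT replicate 3 came near the lowest DKO array, and the difference was 0.98 ± 0.19 (adjusted p = 0.00857). All 3 genes passed under every one of 25 alternative settings, including those that left out each array in turn, where their differences ran from 0.76 to 1.30.

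The other 8 fibrillar genes did not pass, with differences from -0.15 for Col2a1, the cartilage collagen, to 0.24 ± 0.14 for Col5a2, which encodes a type V chain that starts fibrils. All 8 were dim, that is, each group mean lay below 4.78, the median of all genes. Col5a2 is the chromosome 1 neighbour of Col3a1, and at 7 months it read 2.92, 3.03, 3.04 and 2.70 in WT against 3.18, 2.79, 3.09 and 3.59 in DKO islets. The genotypes overlapped in Col5a2, and the 95% interval of its difference ran from -0.06 to 0.55. The interval of Col3a1 ran from 0.80 to 1.56. The difference between these neighbours was not tested. Col5a1 had another probe set whose difference at 7 months was 0.24, beside 0.05 for the one used.

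Among the basement membrane collagens, Col4a1 and Col4a2 encode the chains of the commonest type IV molecule and lie head to head on chromosome 8, with RefSeq start sites 21 bases apart on opposite strands. Col4a1 read 5.62, 5.53, 5.76 and 5.83 in WT and 6.12, 6.06, 6.19 and 6.59 in DKO islets at 7 months, a difference of 0.55 ± 0.11 (limma adjusted p = 0.011). Col4a2 read 5.49, 5.25, 5.53 and 5.60 against 5.79, 5.82, 6.21 and 6.19, a difference of 0.53 ± 0.12 (adjusted p = 0.019). In both genes all DKO arrays lay above all WT arrays, though in Col4a2 the gap between the nearest arrays was small. Col4a2 lost its call without WT replicate 2 (adjusted p = 0.0675), DKO replicate 3 (0.0682) or DKO replicate 4 (0.0581) of the 7-month arrays, with differences of 0.46 to 0.47. Col18a1, the source of the fragment endostatin, read 3.26, 3.36, 3.45 and 3.08 in WT and 3.72, 3.92, 3.80 and 3.81 in DKO islets. The groups did not overlap, and the difference was 0.52 ± 0.09 (adjusted p = 0.00331), which was kept in all 24 alternatives that retained the gene. Col18a1 was the only one of the 8 that was dim.

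The remaining 5 basement membrane genes did not pass at 7 months. Col15a1, a relative of Col18a1 that bridges basement membranes to fibrils, read 5.67, 5.36, 5.37 and 5.36 in WT and 5.44, 5.68, 5.47 and 6.14 in DKO islets. The genotypes overlapped, because WT replicate 1 stood above 2 of the DKO arrays, and the difference was 0.24 ± 0.14 (limma adjusted p = 0.405). The chains Col4a3, Col4a4, Col4a5 and Col4a6, which form the type IV molecules of kidney and other specialised membranes, differed by -0.05 to 0.00 and were all dim.

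Of the 23 other collagens, Col14a1 and Col6a1 rose at 7 months. Col14a1 encodes type XIV collagen, which sits on fibrils of type I. It read 4.51, 4.57, 4.21 and 3.98 in WT and 5.24, 5.21, 5.61 and 5.85 in DKO islets, a difference of 1.16 ± 0.16 (limma adjusted p = 0.000928). The ranges were far apart, and the call was kept in all 25 alternatives. Col6a1, a chain of the beaded filaments of type VI collagen, read 4.68, 4.66, 4.93 and 4.82 in WT and 4.94, 5.26, 5.52 and 5.89 in DKO islets, a difference of 0.63 ± 0.17 (adjusted p = 0.0455). DKO replicate 1 lay just above the highest WT array. Col6a1 did not pass in 13 of 25 alternatives, with adjusted p up to 0.13, and 10 of these left out 1 array: WT replicate 3 or 4 or either DKO array at 5 weeks, any WT array at 7 months, or DKO replicate 3 or 4 at 7 months, where the difference was between 0.47 and 0.68. Its partner chains Col6a2 (0.45 ± 0.20, adjusted p = 0.257) and Col6a3 (0.42 ± 0.14, adjusted p = 0.118) did not pass.

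Col8a1, a short-chain collagen of vessel walls, read 3.01, 2.87, 2.78 and 3.00 in WT and 3.43, 3.06, 3.26 and 3.78 in DKO islets at 7 months. Its groups did not overlap, and it did not pass (0.46 ± 0.15, limma adjusted p = 0.0906). With it, 9 of 42 collagens had all DKO arrays above all WT arrays at 7 months, while 5.35% of all genes did. For Col28a1, a collagen of the type VI family, all DKO arrays lay below all WT arrays (-0.28 ± 0.10, limma adjusted p = 0.134), as did 5.25% of all genes. Col6a6, another type VI chain, read 7.42, 7.46, 7.08 and 7.11 in WT and 7.08, 7.44, 6.40 and 5.91 in DKO islets. DKO replicates 1 and 2 lay within the WT range and replicates 3 and 4 below it, and the difference of -0.56 ± 0.24 did not pass (adjusted p = 0.233). Without DKO replicate 2 it was -0.80 and passed (adjusted p = 0.0278). A second probe set of Col6a6 gave -0.60 at 7 months and -0.45 at 5 weeks, beside -0.56 and -0.60 for the one used. The 4 transmembrane collagens (Col13a1, Col17a1, Col23a1 and Col25a1) differed by 0.05 to 0.11.

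**Figure D2:**
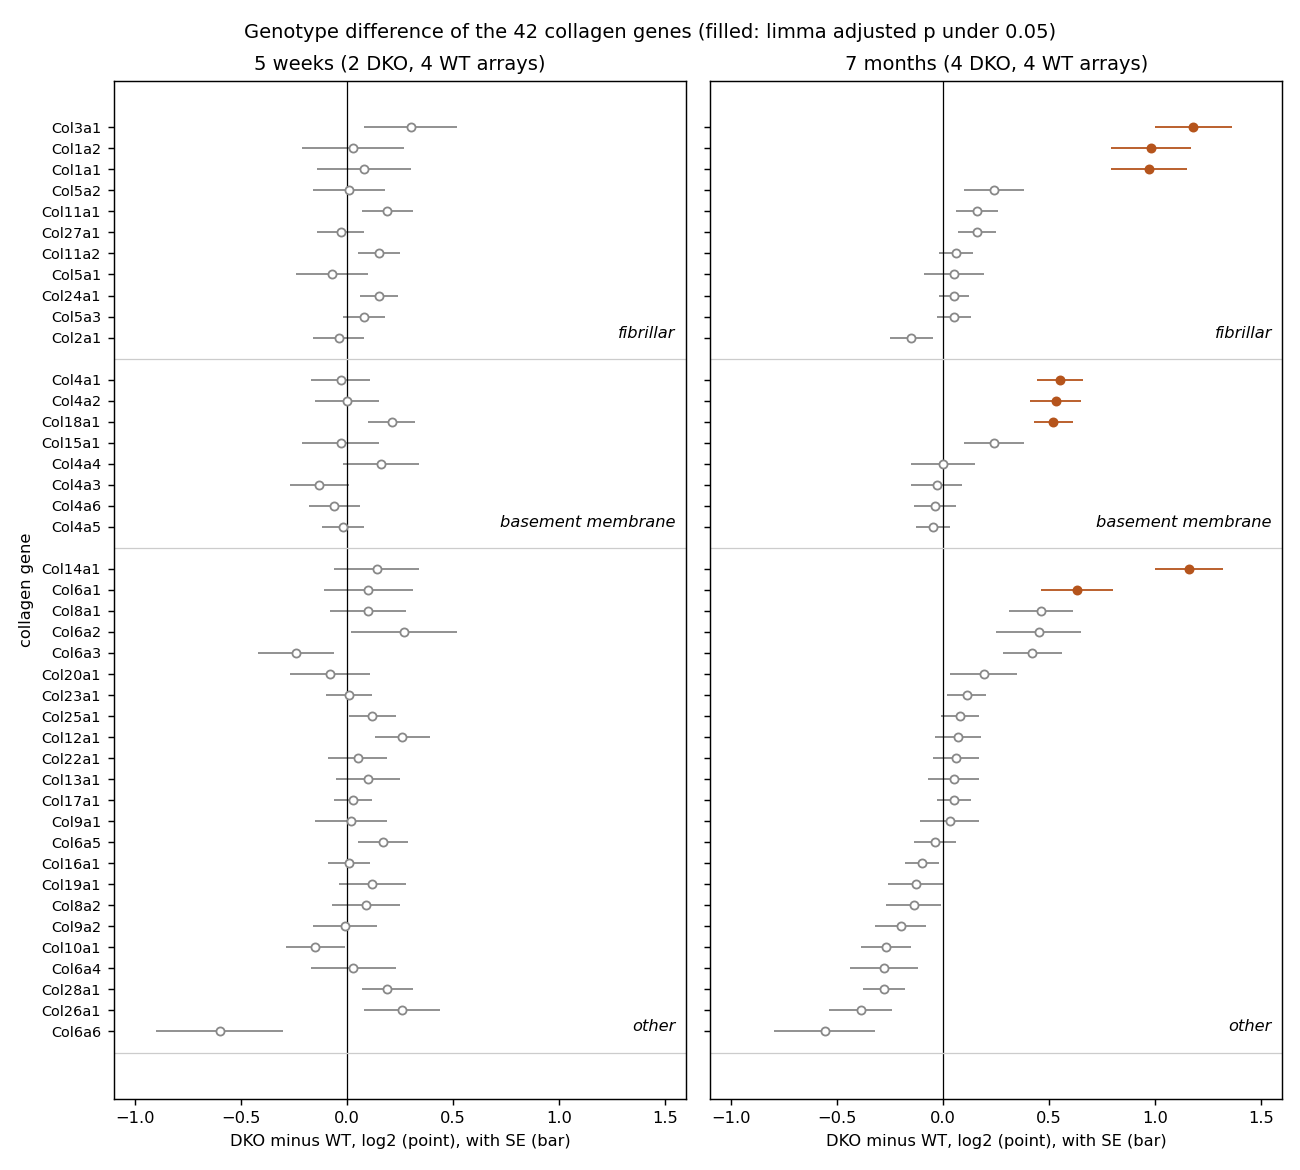
Difference of DKO minus WT on the log2 scale (x axis) for each of the 42 collagen genes (y axis), at 5 weeks on the left and at 7 months on the right. Points are differences, bars are SEs of the model and filled points passed limma at an adjusted p under 0.05, as 0 did at 5 weeks and 8 did at 7 months.

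The 8 genes did not rise evenly over the DKO mice. Among the 4 DKO arrays at 7 months, replicate 4 was highest in 6 of the 8 genes, and replicates 1 and 2 were each lowest in 4. Without DKO replicate 4 the count of collagens called was 6, with Col3a1, Col1a1, Col1a2, Col14a1, Col4a1 and Col18a1 still past the threshold. A number in the description labels, 5 or 7, splits the 7-month arrays into 2 sets with 2 WT and 2 DKO arrays each, and the labels do not say what it stands for. Within each set all 8 genes were higher in DKO islets, by 0.40 to 1.34. In these genes every DKO array lay above every WT array at 7 months, so any such split had to give this direction. The split therefore says nothing about the number. Of the 42 collagens 31 were dim, while 8976 of all 18820 genes were. Dimness is judged by the highest group mean, so it is not independent of the genotype difference. Col14a1 was not dim only through its DKO means (4.81 at 5 weeks and 5.48 at 7 months), beside WT means of 4.67 and 4.32.

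At 5 weeks, 0 of the 42 collagens passed between DKO and WT islets by limma, and 0 had an unadjusted p under 0.05, while 0.994% of all genes passed, 0.499% higher and 0.494% lower. All DKO arrays lay above all WT arrays for 3 collagens (Col12a1, Col18a1 and Col24a1), as for 11.2% of all genes, and below them for 2 (Col10a1 and Col6a6), as for 10.3%. Differences ran from -0.60 for Col6a6 to 0.30 for Col3a1, and the smallest adjusted p was 0.447. Col3a1 read 5.44, 5.17, 5.08 and 5.22 in WT and 5.38 and 5.68 in DKO islets (0.30 ± 0.22, limma adjusted p = 0.662). Col4a1 read 5.58, 5.68, 5.74 and 5.65 in WT and 5.73 and 5.54 in DKO islets (-0.03 ± 0.14). The genotypes overlapped in both genes. With 2 DKO arrays the intervals were wide: the 95% interval was -0.17 to 0.76 for Col3a1, -0.40 to 0.56 for Col1a1, -0.29 to 0.57 for Col14a1 and -0.32 to 0.27 for Col4a1. Col6a6 was 6.86, 7.24, 7.01 and 6.99 in WT and 6.39 and 6.47 in DKO islets, below all WT arrays, and did not pass (-0.60 ± 0.30, limma adjusted p = 0.449).

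Whether the genotype difference changed between the times was tested by the interaction, in which 0 of 42 collagens passed by limma and 10 had an unadjusted p under 0.05, while 0.0903% of all genes passed, 0.0266% higher and 0.0638% lower. The interaction was 1.01 ± 0.26 for Col14a1 (limma adjusted p = 0.167), 0.95 ± 0.30 for Col1a2 (0.269), 0.89 ± 0.29 for Col1a1 (0.28) and 0.89 ± 0.28 for Col3a1 (0.267). It was 0.58 ± 0.18 for Col4a1 (0.256), 0.53 ± 0.19 for Col4a2 (0.325) and 0.31 ± 0.14 for Col18a1 (0.47). The calls at 7 months are thus not shown to differ from the values at 5 weeks after adjustment over all genes.

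Within each genotype the collagens were compared between the times. In WT islets 0 of 42 collagens passed by limma and 3 had an unadjusted p under 0.05, while 2.37% of all genes passed, 1.35% higher and 1.01% lower. Differences of 7 months minus 5 weeks in WT were -0.51 ± 0.18 for Col3a1 (limma adjusted p = 0.175), -0.45 ± 0.18 for Col1a1 (0.266), -0.35 ± 0.16 for Col14a1 (0.351) and -0.29 ± 0.19 for Col1a2 (0.533), and 0.02 ± 0.11 for Col4a1 and 0.02 ± 0.12 for Col4a2. Col3a1 in WT passed without DKO replicate 4 of the 7-month arrays (-0.51, adjusted p = 0.0457) and with only the WT arrays fitted (-0.51, adjusted p = 0.0347). In DKO islets 2 of 42 collagens rose over time, Col4a1 and Col4a2, and 3 fell, while 7.57% of all genes passed, 4.86% higher and 2.7% lower. Col4a1 rose by 0.60 ± 0.14 (limma adjusted p = 0.016) from 5.73 and 5.54 at 5 weeks to between 6.06 and 6.59 at 7 months. Col4a2 rose by 0.55 ± 0.15 (adjusted p = 0.0339) from 5.34 and 5.56 to between 5.79 and 6.21. In both genes the times did not overlap. Values in DKO islets that did not pass were 0.67 ± 0.20 for Col14a1 (adjusted p = 0.0582), 0.66 ± 0.24 for Col1a2 (0.111), 0.44 ± 0.22 for Col1a1 (0.276) and 0.37 ± 0.22 for Col3a1 (0.353).

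**Figure D3:**
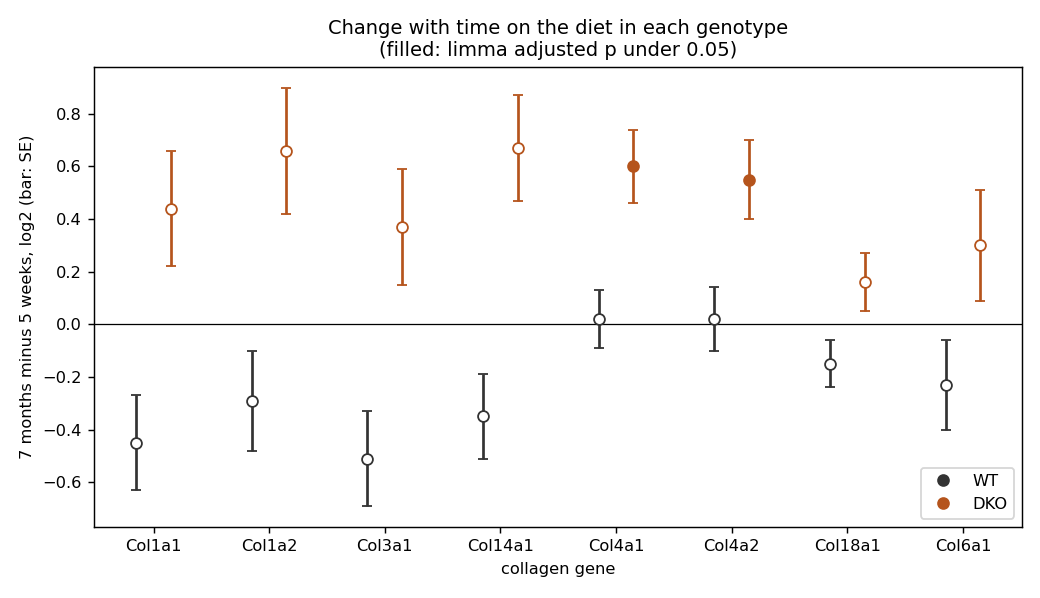
Difference of 7 months minus 5 weeks on the log2 scale (y axis) in WT (black) and DKO (brown) islets for the 8 collagen genes that rose in DKO against WT islets at 7 months (x axis). Bars are SEs and filled points passed limma at an adjusted p under 0.05. In WT islets the fibrillar genes and Col14a1 lie between -0.51 and -0.29 and the type IV chains at 0.02, and in DKO islets all 8 lie above 0, with Col4a1 and Col4a2 past the threshold.

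The genes that fell over time in DKO islets were all dim. Col28a1 fell by 0.52 ± 0.12 (limma adjusted p = 0.0197), from 3.84 and 4.11 at 5 weeks to between 3.40 and 3.53 at 7 months. Col12a1, a fibril-associated collagen, fell by 0.53 ± 0.13 (adjusted p = 0.0236), from 3.19 and 3.42 to between 2.51 and 2.89. Col26a1 fell by 0.68 ± 0.18 (adjusted p = 0.0369), from 4.35 and 3.73 to between 3.13 and 3.59. The times did not overlap in any of the 3. In WT islets Col12a1 changed by -0.33 ± 0.11 (adjusted p = 0.14), Col28a1 by -0.04 ± 0.10 and Col26a1 by -0.03 ± 0.15. Over time in DKO islets, Col4a1 lost its call without DKO replicate 1 (adjusted p = 0.0688) or 2 (0.113) of 5 weeks, and Col4a2 without either of these (0.306 and 0.056) or DKO replicate 3 or 4 of 7 months (0.0839 and 0.0715). Col12a1 lost its call without either 5-week DKO array (0.0689 and 0.168) or DKO replicate 1 of 7 months (0.05), Col26a1 without DKO replicate 1 of 5 weeks (0.465) or DKO replicate 1 or 3 of 7 months (0.0831 and 0.078), and Col28a1 without DKO replicate 2 of 5 weeks (0.165). Col14a1 (adjusted p = 0.0306) and Col1a2 (0.0394) passed as higher without DKO replicate 2 of 7 months. Col14a1 also passed without WT replicate 2 of 5 weeks (0.0486). The 5 calls in DKO islets rest on 2 arrays at 5 weeks. Their number was 1 when DKO replicate 1 of that time was left out and 2 when DKO replicate 2 was, 3 without DKO replicate 1 or 3 of 7 months, 3 with the acinar markers as a covariate and 0 with the DKO arrays fitted alone.

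The genes that fold, trim and crosslink collagen went both ways. Of 27 measured, 4 rose and 2 fell in DKO against WT islets at 7 months, with a median of 0.14, while 2.44% of all genes rose and 2.27% fell. Pcolce, which speeds the trimming of fibrillar procollagen, rose by 0.76 ± 0.14 (limma adjusted p = 0.00494), and Tll1, a procollagen-trimming protease, rose by 0.65 ± 0.11 (0.00451). Tll1 was dim, with means at 7 months of 2.62 in WT and 3.27 in DKO islets. P3h2, which hydroxylates prolines chiefly of type IV collagen, fell by 0.85 ± 0.13 (0.00189), from 9.06, 8.97, 8.78 and 8.92 in WT to 7.85, 8.08, 8.23 and 8.17 in DKO islets. Loxl2, a lysyl oxidase that crosslinks type IV collagen, fell by 0.48 ± 0.10 (0.0136), from 7.54, 7.34, 7.53 and 7.55 to 7.05, 7.01, 7.08 and 6.91. In both genes every DKO array lay below every WT array while Col4a1 and Col4a2 were higher in the same arrays. Loxl2 lost its call when the probe sets of the gene were averaged (-0.29, adjusted p = 0.0941) or with the acinar covariate (-0.45, 0.0547). The count of 6 was 10 without DKO replicate 2 of the 7-month arrays and 3 with the acinar covariate.

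Loxl2 and P3h2 were lower in DKO islets at 5 weeks as well, when no collagen passed. At that time 3 of the 27 genes fell and 0 rose, while 0.494% of all genes fell and 0.499% rose. Loxl2 fell by 1.11 ± 0.12 (limma adjusted p = 0.000356), from 7.34, 7.19, 7.43 and 7.28 in WT to 5.96 and 6.44 in DKO islets, with no overlap. P3h2 fell by 0.79 ± 0.16 (0.0304), from 7.52, 6.91, 7.54 and 7.25 to 6.39 and 6.62, also with no overlap. The P3h2 call at 5 weeks was lost without WT replicate 1, 3 or 4 or either DKO array of that time, with values of -0.68 to -0.91. It was also lost when the probe sets of the gene were averaged (-0.43, adjusted p = 0.0978), with array weights (0.0745) and with the 5-week arrays alone (0.112). Colgalt2, which adds sugars to collagen, fell by 0.79 ± 0.17 (0.0451), and lost its call in 17 of 24 alternatives, with values of -0.45 without DKO replicate 2 to -0.83 without WT replicate 4 of the 5-week arrays. The count of 3 was 1 without WT replicate 1, 3 or 4 of that time. P3h2 rose over time in both genotypes, by 1.63 ± 0.13 in WT and 1.57 ± 0.16 in DKO islets, past the threshold in each.

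Some partners of both collagen groups rose in DKO islets at 7 months. Of 21 measured proteins that bind or organise fibrils, 9 rose and 0 fell, with a median of 0.48, while 2.44% of all genes rose and 2.27% fell. Of these 21 genes 15 were dim, Ogn among them, with means at 7 months of 2.54 in WT and 3.77 in DKO islets. Dcn (decorin), a small proteoglycan that coats fibrils, read 5.74, 6.46, 5.92 and 4.79 in WT and 7.07, 7.66, 7.86 and 8.17 in DKO islets. All DKO arrays lay above all WT arrays, and the difference was 1.96 ± 0.30 (limma adjusted p = 0.00162). The related Prelp (0.96 ± 0.17, adjusted p = 0.00453) and Ogn (1.24 ± 0.25, 0.0104) rose, as did Fn1, fibronectin (1.26 ± 0.28, 0.0169). Fn1 was dim and read 4.42, 4.07, 4.76 and 5.69 in the DKO arrays. It lost its call without WT replicate 4 (1.10, 0.0514) and with the 8 arrays alone (0.0703). The count of 9 was 5 without WT replicate 1 or 3, 4 without WT replicate 4 of the 7-month arrays, and 3 with the 8 arrays alone or the acinar covariate. Of 15 basement membrane partners 4 rose and 0 fell, with a median of 0.31. The laminin chains Lama2 (0.90 ± 0.14, adjusted p = 0.00157), Lamb1 (0.61 ± 0.11, 0.00574) and Lama5 (0.87 ± 0.16, 0.00593) rose, and these 3 kept their calls in all 25 alternatives. Sparc, a type IV collagen binder, rose by 0.70 ± 0.16 (0.0223). Sparc lost its call without WT replicate 1, 2 or 4 or DKO replicate 3 or 4 of the 7-month arrays, with adjusted p up to 0.0698. With the 8 arrays alone Sparc did not pass either (0.0543).

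Receptors, proteases and the TGF-beta pathway, a growth factor pathway known for raising collagen transcription, were counted in the same way. At 7 months 2.44% of all genes rose and 2.27% fell. Of 10 collagen receptors 0 passed at 7 months, with the discoidin receptor Ddr2 at 0.41 ± 0.14 (limma adjusted p = 0.113) and the integrin chain Itgb1 at 0.23 ± 0.09 (0.178). Without DKO replicate 2 of the 7-month arrays Itgb1 passed at 0.31 (0.0284). Of 12 proteases and inhibitors that act on collagen 2 rose, Mmp14, a membrane-bound collagenase (0.67 ± 0.14, 0.0161), and Timp2, an inhibitor that Mmp14 binds (0.73 ± 0.17, 0.0224). Mmp14 lost its call without WT replicate 1 (0.63, 0.0541), and Timp2 without WT replicate 4 or DKO replicate 1, 3 or 4 of the 7-month arrays (adjusted p up to 0.0793). Neither passed with the acinar covariate (0.0713 and 0.0866) or with the 8 arrays alone (0.059 and 0.0626). Of 15 TGF-beta pathway genes 1 rose, Ccn2, a matricellular target of the pathway (0.59 ± 0.11, 0.00686), and the median was -0.04, while 4.71% of all genes passed. Without DKO replicate 2 of the 7-month arrays 2 of the 15 passed. At 5 weeks no gene of these lists, nor of the fibril and basement membrane partners, passed by limma.

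Markers of the cell types that could carry collagen RNA were counted in lists that hold no collagen, and in most of these lists the majority of markers did not pass at 7 months. In bulk RNA, fewer cells of a type and less RNA per cell cannot be told apart. Of 13 measured markers of stellate cells, pericytes and fibroblasts 6 rose and 0 fell, while 2.44% of all genes rose and 2.27% fell, among them Dcn, Pdgfra, which encodes a receptor for platelet-derived growth factor (0.83 ± 0.13, limma adjusted p = 0.00203), Vim, vimentin (0.83 ± 0.15, 0.00642), and Thy1 (1.02 ± 0.21, 0.0122). Pdgfra, which was dim, read 3.00, 3.12, 2.82 and 3.08 in WT and 3.95, 3.75, 3.49 and 4.14 in DKO islets, with no overlap. In Thy1 WT replicate 2 (4.72) came near DKO replicate 1 (4.77), and Thy1 lost its call with the 8 arrays alone (limma adjusted p = 0.0556). The mean of the 13 was 4.97, 5.03, 4.93 and 4.81 in WT and 5.37, 5.47, 5.47 and 5.88 in DKO islets at 7 months. It was highest in DKO replicate 4, as were 6 of the 8 collagens. Over time in DKO islets 4 of the 13 rose and 0 fell, while 4.86% of all genes rose and 2.7% fell. They were Acta2 (1.72 ± 0.17, limma adjusted p = 4.94e-05), Rgs5 (0.77 ± 0.12, 0.00144), Pdgfrb (0.98 ± 0.19, 0.00615) and Tagln (0.86 ± 0.17, 0.00681), with 2 arrays at 5 weeks. Over time in WT islets 1 rose and 2 fell, while 1.35% of all genes rose and 1.01% fell. Rgs5 rose (0.39 ± 0.10, 0.0492). Dcn (-1.38 ± 0.30, 0.0253) and Pdgfra (-0.53 ± 0.13, 0.049) fell, and both of these calls were fragile. Dcn lost its call without WT replicate 1 or 4 of 5 weeks or WT replicate 1, 3 or 4 of 7 months (adjusted p up to 0.0838), and Pdgfra lost its call in 14 of 24 alternatives (adjusted p up to 0.148). The count of 6 at 7 months was 3 with the acinar covariate or without dim genes. Dcn is also among the fibril partners. Between the genotypes at 5 weeks 0.994% of all genes passed. At 5 weeks 1 of the 13 passed, the smooth muscle actin gene Acta2, which was lower in DKO islets (-0.98, limma adjusted p = 0.014) and lost its call without DKO replicate 1 of that time (0.243).

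Of 12 endothelial markers 2 rose and 1 fell at 7 months: the receptor gene Tek (0.57 ± 0.09, limma adjusted p = 0.0026), Vwf, von Willebrand factor (0.81 ± 0.14, 0.00345), and Emcn, endomucin (-0.36 ± 0.09, 0.0424), which lost its call in 13 of 25 alternatives, 10 of them without 1 array each. The mean of the 12 lay between 7.09 and 7.19 in WT and between 7.27 and 7.45 in DKO islets. Of 12 macrophage markers 4 rose and 0 fell, with means of the 12 of 4.96 to 5.07 in WT and 5.15 to 5.80 in DKO islets. The 4 were Fcgr1 (0.62, limma adjusted p = 0.00779), Lyz2 (0.96, 0.0161), Mrc1 (0.62, 0.0258) and Itgam (0.55, 0.0461). Fcgr1, Mrc1 and Itgam were dim. The count was 2 without WT replicate 2 or 3 or DKO replicate 3 or 4 of the 7-month arrays. With the 8 arrays of this comparison alone Lyz2 (0.072), Mrc1 (0.0915) and Itgam (0.105) lost their calls. Of 10 acinar markers 0 passed, with a median difference of 1.06 and means of 6.17, 7.93, 6.73 and 5.00 in WT and 7.29 to 7.65 in DKO islets. Of 6 duct markers 1 fell, of 5 mesothelial markers 1 fell (Msln, -2.41 ± 0.24), and of 5 Schwann cell and 6 adipocyte markers 0 passed. Among endocrine lists 0 of 9 beta cell markers passed, and 3 of 4 alpha cell and 2 of 5 delta cell markers fell. Beside the counts of all these lists, 2.44% of all genes rose and 2.27% fell at 7 months. Without DKO replicate 2 of the 7-month arrays 3 of the beta cell markers fell, and without WT replicate 2 of that time 1 acinar marker passed. With the acinar markers as a covariate 7 of the 8 collagens kept their call, Col6a1 being the exception (0.59, adjusted p = 0.13). The part of the stellate, endothelial and macrophage markers in the collagen differences was not tested.

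**Figure D4:**
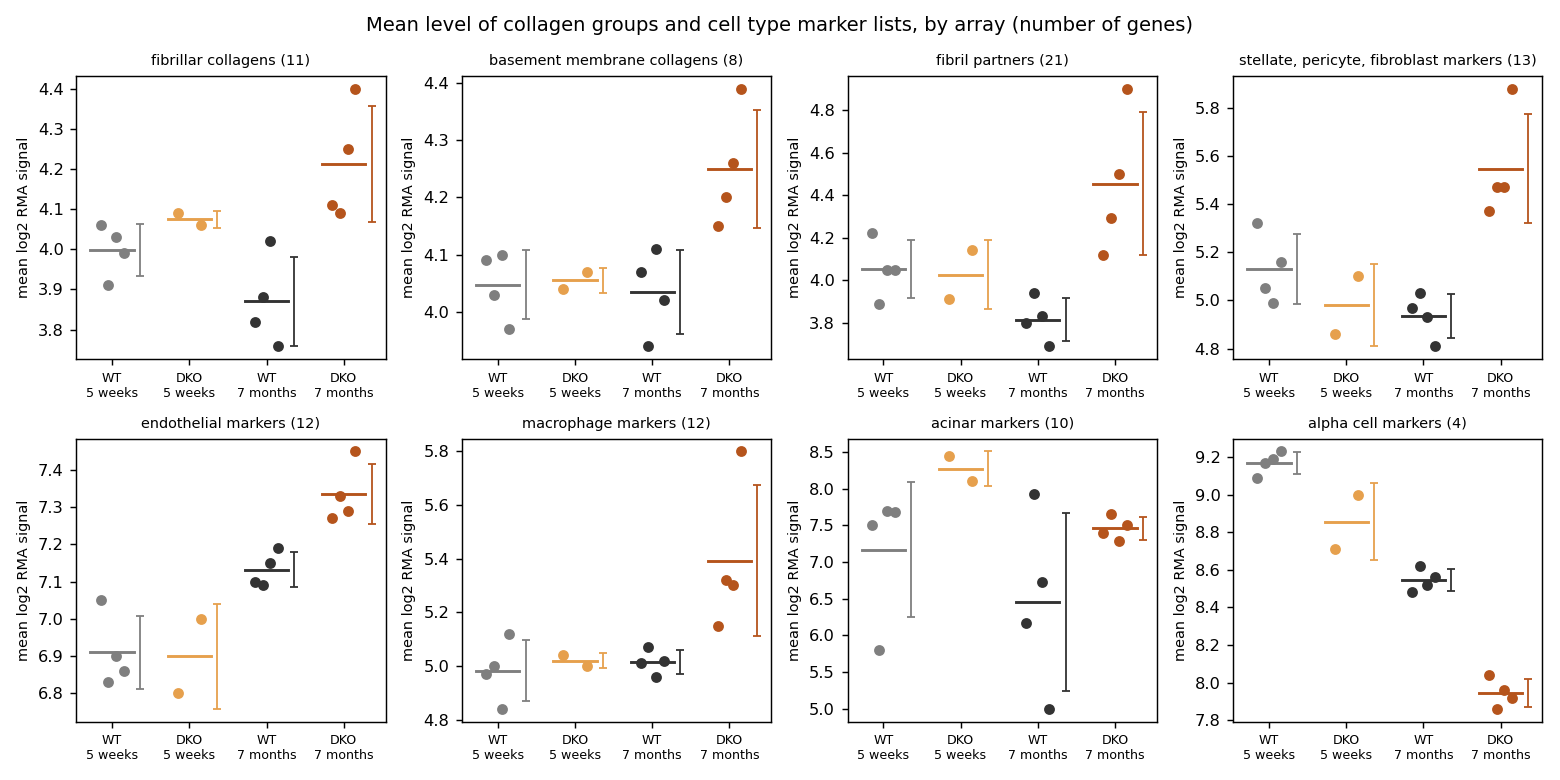
Mean log2 RMA signal (y axis) of 2 collagen groups, the fibril partners and 5 cell type marker lists, with the number of genes in each title. Points are arrays, horizontal bars are group means and bars beside them are SDs. At 7 months the 4 DKO arrays lie above the 4 WT arrays for the fibrillar and basement membrane collagens, the fibril partners and the stellate, endothelial and macrophage markers, below them for the alpha cell markers, and within the WT range for the acinar markers.

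Over time in DKO islets 3 of 10 collagen receptor genes rose, while 4.86% of all genes did, the integrin chains Itga2 (1.13 ± 0.20, limma adjusted p = 0.0039), Itgb1 (0.55 ± 0.11, 0.00706) and Itga1 (0.71 ± 0.16, 0.0146), which pair into receptors of type I and type IV collagen. With the probe sets of the gene averaged, Itgb1 was 0.23 and did not pass (0.276). In WT islets 0 of the 10 passed, with Itga1 at 0.46 ± 0.13 (0.088), which passed without DKO replicate 2 of 7 months (0.0355). Whether the rise differed between genotypes was tested by the interaction, which did not pass for Itgb1 (0.46 ± 0.14, 0.259). Of 15 TGF-beta pathway genes 0 passed over time in WT islets, where Tgfb3 was 0.58 ± 0.18 (0.112) and Tgfb2 -0.56 ± 0.15 (0.0743). The Tgfb3 interaction did not pass (0.68 ± 0.28, 0.411). In DKO islets 2 of the 15 rose and 1 fell, while 4.86% of all genes rose and 2.7% fell. There Tgfb3 rose by 1.26 ± 0.21 (0.00255) and Ccn2 by 0.74 ± 0.14 (0.00433), and Tgfb2 fell by 0.75 ± 0.19 (0.0234). Tgfb2 and Tgfb3 are ligands of the pathway. Without DKO replicate 1 of the 5-week arrays none of these genes passed, with adjusted p from 0.0591 for Ccn2 to 0.263 for Itga1.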

How the data were processed

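Total RNA of islets, each sample labelled as from its own mouse, was isolated by Trizol followed by a miniprep kit and DNase, and each array received 100 ng, per the labels' protocols. The authors deposited log2 values per probe set, summarised by RMA per the submitters' processing notes, with no RMA version stated there. Arrays have no read depth, so precision is limited by how many there are. The limma p-values set each difference against the spread between samples within groups, which the 4 groups share and which limma moderates over all genes.

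Of 35556 probe sets, 21218 had 1 gene symbol, 1881 had several and 12457 had none in the platform annotation. The brightest probe set stood for each of 18820 genes, of which 18790 were matched by Entrez identifier. limma 3.58.1 in R 4.3.3 (lmFit and eBayes) fitted 1 mean for each of the 4 groups over all 14 arrays, with Benjamini-Hochberg adjustment over all genes and a threshold of 0.05. The scripts were tested on simulated data. Tlr2 and Tlr4 also had a two-sided exact permutation test (Python 3.11.15). Promoter windows came from RefSeq. Every collagen past the threshold in any comparison was to be named, with the 3 brightest of each group, and up to 4 genes per partner or marker list and comparison by smallest p, or 2 where none passed. Other collagens named (among them Col2a1, Col5a2, Col6a2, Col6a3, Col8a1 and Col10a1) were chosen after their values were seen. The members and lists were chosen with earlier results of these data known.

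The alternatives were other sets of arrays, normalization, filters, probe set rules, priors, array weights, blocks and an acinar covariate. Replicate numbers of the titles did not pair the samples: 1 of 18 correlations between same-numbered arrays of different groups was over 0.1 (-0.16 to 0.16). The description labels also hold a letter that follows the groups, so letter and group cannot be told apart.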

Additional observations from a re-analysis of the deposited data

Results flagged for a closer look

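Single arrays stood apart from the other 3 of their group in 4 of the 57 gene-by-group sets examined over 19 genes, and chance gives about 1 in 20. Col12a1 was 2.91 in WT replicate 1 at 7 months, with the others between 2.63 and 2.66, and 2.51 in DKO replicate 1 at 7 months, with the others between 2.84 and 2.89. Col15a1 was 5.67 in WT replicate 1 at 7 months, with the others between 5.36 and 5.37. Loxl2 was 7.34 in WT replicate 2 at 7 months, with the others between 7.53 and 7.55.

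By the limma interaction of genotype and time 2 genes of the delta cell list passed, Rbp4 (-1.73, adjusted p = 0.0172) and Sst (-0.82, adjusted p = 0.026). Rbp4 did not pass without DKO replicate 1 of 5 weeks (-1.78, 0.0677). Sst did not pass with the replicate number as a block (-0.77, 0.0834), without any one of the 4 WT arrays of 5 weeks (0.0517 to 0.0741), without DKO replicate 1 (0.114) or 2 (0.0624) of 5 weeks, or without WT replicate 2 (0.065), WT replicate 4 (0.0732) or DKO replicate 3 (0.0562) of 7 months. No collagen passed that test.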

How the results depend on the processing

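Under 25 alternatives, 0 called values changed direction, and the count of collagens called stayed at 0 at 5 weeks and in the interaction. With only the arrays of the groups compared, the collagens called were 5 in place of 8 at 7 months, 1 in place of 0 over time in WT and 0 in place of 5 over time in DKO islets, and all genes called were 120 in place of 187 at 5 weeks, 488 in place of 887 at 7 months and 347 in place of 1424 over time in DKO. With the replicate number as a block, 2 collagens were called over time in DKO, 8 at 7 months, and all genes called were 121 at 5 weeks, 864 over time in DKO and 10 in place of 17 in the interaction. With the acinar covariate, 3 collagens were called over time in DKO, and all genes called were 91 at 5 weeks and 890 over time in DKO. A trended and robust prior called 282 genes at 5 weeks and 46 in the interaction, and array weights called 786 in place of 446 over time in WT and 28 in the interaction. Without dim genes, which leaves 3 fibrillar and 3 basement membrane collagens, 291 genes were called at 5 weeks and 48 in the interaction. Medians then became 0.98 (fibrillar) and 0.53 (basement membrane) at 7 months, 0.44 and 0.55 over time in DKO, 0.89 and 0.53 in the interaction, and -0.45 (fibrillar) over time in WT. Leaving out 1 array gave 6 to 10 collagens at 7 months, 0 to 1 over time in WT and 1 to 7 over time in DKO. It gave 44 to 236 genes at 5 weeks, 528 to 1681 at 7 months, 221 to 527 over time in WT, 378 to 2051 over time in DKO and 2 to 185 in the interaction. The basement membrane median then ran from -0.03 to 0.09 at 5 weeks, 0.03 to 0.19 at 7 months and 0.10 to 0.27 in the interaction. The cause of these shifts was not tested. With 2 DKO arrays at 5 weeks the median SE over all genes was 0.14, against 0.114 at 7 months, and 31 of 42 collagens lay at dim levels.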
